A study of Mus musculus with 24 samples.

Results

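The Schlafen genes of the mouse, a family named after the German word for sleeping, were followed in macrophages with and without the histone deacetylase gene Hdac9. The members are the 7 rows of the count table whose Ensembl identifiers map to Slfn1 (ENSMUSG00000078763.3), Slfn2 (ENSMUSG00000072620.4), Slfn3 (ENSMUSG00000018986.11), Slfn4 (ENSMUSG00000000204.17), Slfn5 (ENSMUSG00000054404.14), Slfn8 (ENSMUSG00000035208.17) and Slfn9 (ENSMUSG00000069793.13). They were taken by name, out of 56941 gene identifiers in the table, of which 51948 matched a symbol. The study sequenced RNA from bone marrow-derived macrophages (BMDM), cells grown from mouse marrow in medium conditioned by L929 cells. There were 3 genotypes: a knockout of Hdac9 (KO), dCIS, in which a cis-regulatory element tied to Hdac9 in the labels is deleted, and wild type (WT). Each was sampled after 6 h in 100 ng/ml lipopolysaccharide (LPS), a component of the bacterial outer membrane, and without stimulation, always in medium without serum. The 6 groups of 4 libraries are KO LPS, dCIS LPS, WT LPS, KO untreated, dCIS untreated and WT untreated. The labels give neither the strain, age and sex of the mice nor the kind of alleles, and they do not say whether libraries of 1 group are separate animals. All p-values therefore reflect the spread from library to library, which may be technical.

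Total counts per library lay between 14636058 and 19181707, and levels are given as CPM, counts scaled by library size, and summarised as the mean ± SD of 4 libraries. Libraries 3 and 4 of dCIS after LPS stood apart, with 17628 and 15997 genes detected, while the other 22 libraries had 20458 or more. Results after LPS that change their call or direction without these libraries are also given without them, as are some that only moved. Hdac9 itself stood at 0.464, 0.0898, 0.334 and 0.319 CPM in KO LPS libraries, 16.5, 21.2, 9.89 and 11.0 CPM in dCIS LPS libraries and 11.4, 16.5, 10.4 and 11.0 CPM in WT LPS libraries. Without LPS the values were 1.31, 0.884, 0.841 and 1.13 CPM in KO, 17.9, 17.0, 13.0 and 14.5 CPM in dCIS and 9.15, 12.4, 11.4 and 12.0 CPM in WT, so the KO libraries lay below all others at both treatments. All 7 macrophage markers of a list (Adgre1, Csf1r, Cd68, Mertk, Fcgr1, Itgam and Lyz2) were detected in every group, with summed levels between 15057 and 25444 CPM in any library.

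Schlafen proteins were found in mouse thymocytes, where forced expression of some members slows growth. The short forms (Slfn1 and Slfn2) hold little beyond the shared Schlafen core, the intermediate forms (Slfn3 and Slfn4) add a further domain, and the long forms (Slfn5, Slfn8 and Slfn9) add a helicase-like domain. Several members are induced by type I interferon, which macrophages make when LPS engages the receptor TLR4 and which acts back on the same cells. The core of some members binds transfer RNA, and loss of mouse Slfn2 ends the quiescent state of T cells and monocytes.

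The genes form 1 cluster on chromosome 11, in the order Slfn5, Slfn9, Slfn8, Slfn2, Slfn1, Slfn4 and Slfn3, followed by Slfn14. The stretches printed here lie upstream of the annotated start sites and hold motifs that were chosen after these sequences were seen. Each long form holds an exact match to the core of the interferon-stimulated response element (ISRE), and each of the other members an ETS motif. This split may follow from that choice and was not tested. The stretches of Slfn8 and Slfn9 are much alike, and the Slfn5 match runs on into further A bases. All stretches are 5′ to 3′ on the strand of the gene, from the RefSeq promoter table of build GRCm38.p6, with the match in capitals.
Slfn5 (chr11:82951929-82951974, plus strand): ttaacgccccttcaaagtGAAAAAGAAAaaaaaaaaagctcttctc
Slfn9 (chr11:82991848-82991893, minus strand): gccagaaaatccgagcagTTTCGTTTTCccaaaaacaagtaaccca
Slfn8 (chr11:83020831-83020876, minus strand): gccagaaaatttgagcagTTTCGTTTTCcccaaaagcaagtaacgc
Slfn2 (chr11:83065039-83065081, plus strand): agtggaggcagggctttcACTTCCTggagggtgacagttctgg
Slfn1 (chr11:83116728-83116770, plus strand): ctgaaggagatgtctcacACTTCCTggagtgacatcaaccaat
Slfn4 (chr11:83175095-83175137, plus strand): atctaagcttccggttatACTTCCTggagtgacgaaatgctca
Slfn3 (chr11:83191270-83191312, plus strand): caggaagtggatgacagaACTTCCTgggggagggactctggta

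All 7 members matched the promoter table, whose windows run from 250 bases before to 50 bases after a start site. The motifs were searched on both strands, and were chosen after these sequences were seen. The ISRE core, read as GAAA, any 2 bases and GAAA, or as TTTC, any 2 bases and TTTC on the other strand, was found in 3 of 7 members and in 3.44% of all 32851 windows. Its first base lay at -155 from the start of Slfn5, -45 from that of Slfn9 and -48 from that of Slfn8. For Slfn8 a second annotated start has its own window, which holds the same site. The ETS motif, AGGAAGT or ACTTCCT, was found in 4 of 7 members and in 9.35% of all windows, at -55 in Slfn2, -74 in Slfn1, -73 in Slfn4, and at both -59 and -42 in Slfn3, of which only the site at -42 is in capitals. Neither the gamma-activated sequence (TTC, any 3 bases and GAA, in 8.30% of all windows) nor the NF-kB motif in the form searched (GGG, any 2 bases and TTTCC, or its reverse complement, in 1.63%) was found in a window of a member. Other forms of the NF-kB motif were not searched. The windows of Slfn2 and Slfn5 do hold GGG and TTTCC with fewer bases between them. These matches describe letters in short windows; the data hold no measurement of binding.

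The first comparison asks how the family responds to LPS in each genotype. All 7 members rose in KO, in dCIS and in WT macrophages. In each of these 21 comparisons every LPS library lay above every untreated library, but the share of all genes tested that separate in this way was not counted. Among all 14757 genes tested, 30.9% were called higher and 30.7% lower in KO, 31.3% and 33.3% in dCIS, and 30.4% and 31% in WT, at an adjusted p under 0.05 in edgeR's quasi-likelihood test. The median log2 fold change of the 7 members was 3.83 in KO, 3.73 in dCIS and 3.61 in WT, beside 0.019, -0.051 and 0.0030 over all genes tested. Largest adjusted p-values among the members were 2.73e-11 in KO, 3.25e-10 in dCIS and 4.93e-11 in WT. Summed over the 7 members, levels were 7917 ± 575 CPM after LPS and 711 ± 53.2 CPM without it in KO, 7747 ± 528 and 689 ± 63.9 CPM in dCIS, and 7424 ± 275 and 663 ± 34.1 CPM in WT.

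**Figure D1:**
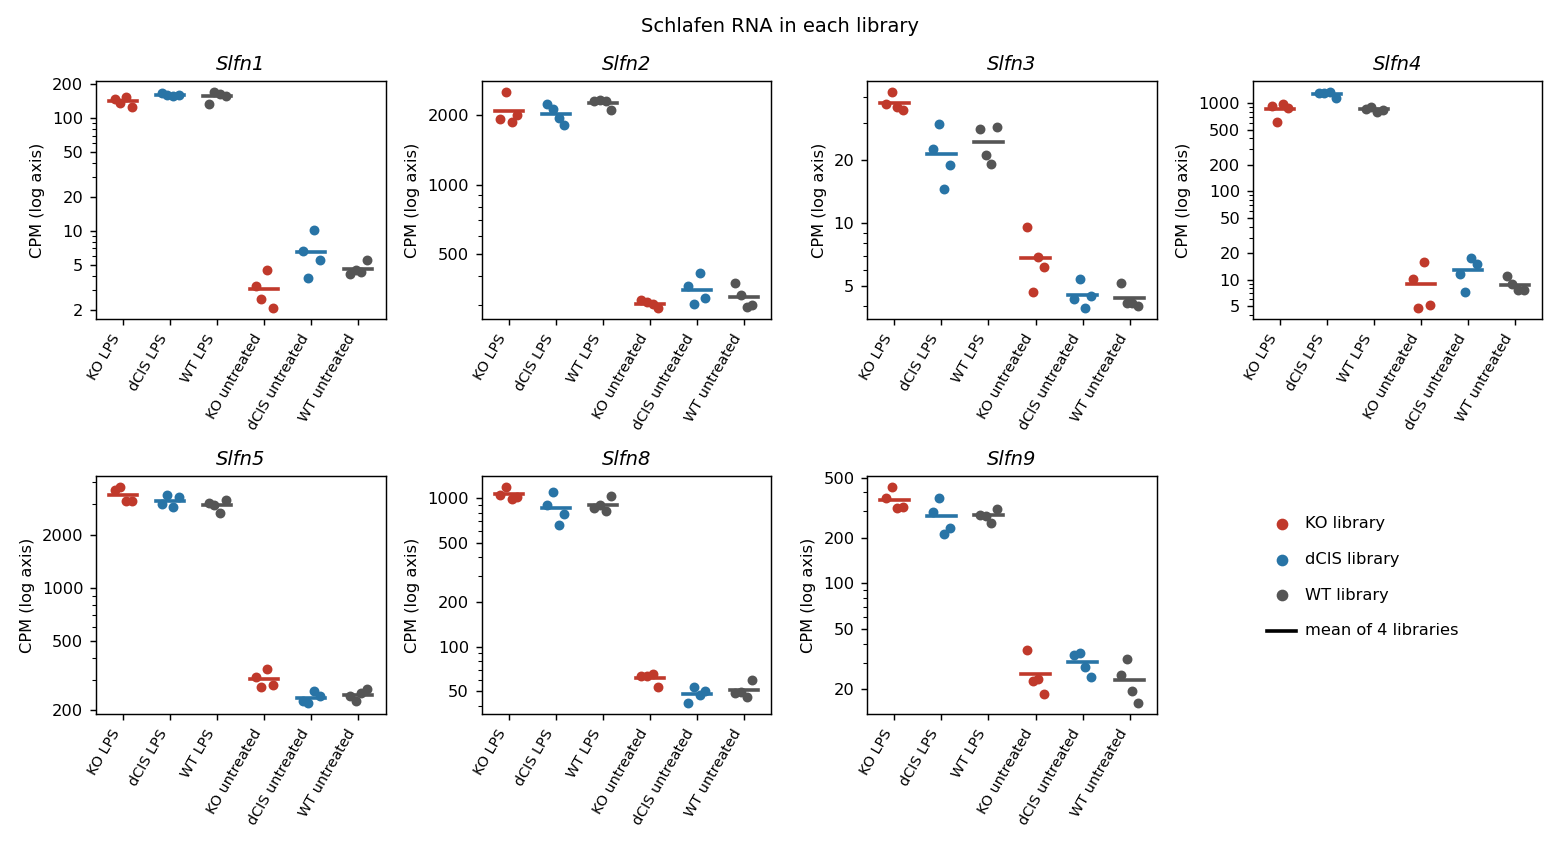
Levels of the 7 Schlafen genes in each of the 24 libraries, in CPM on a log axis, with a panel per gene; points are libraries, short lines are means of 4 libraries, and colours mark the genotypes. In each panel every LPS library lies above every untreated library of any genotype, and the gap is widest for Slfn4.

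Among the short forms, Slfn1, which slows T cell growth when overexpressed in mice, was scarce without LPS. After LPS it stood at 147, 137, 154 and 127 CPM in KO libraries, against 3.24, 2.49, 4.50 and 2.07 CPM without it. In dCIS the LPS libraries had 167, 161, 156 and 161 CPM and the untreated ones 6.68, 3.84, 10.2 and 5.59 CPM. WT libraries had 133, 171, 164 and 157 CPM after LPS and 4.18, 4.52, 4.34 and 5.52 CPM without it. After LPS the 4 KO libraries lay just below the 4 dCIS libraries, and WT overlapped both. Without LPS the lowest library was a KO one and the highest a dCIS one. The log2 fold change for LPS was 5.53 (SE 0.220) in KO, 4.62 (SE 0.206) in dCIS and 5.07 (SE 0.212) in WT, a 46.1-fold, 24.5-fold and 33.7-fold rise.

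Slfn2, the member needed for quiescence of mouse T cells, had the highest level per length of transcript in every group. Its KO libraries had 1919, 2525, 1876 and 2006 CPM after LPS and 317, 309, 305 and 291 CPM without it. The dCIS libraries had 2235, 2122, 1953 and 1815 CPM after LPS and 362, 303, 414 and 324 CPM without it. In WT the values were 2294, 2318, 2314 and 2101 CPM after LPS and 373, 334, 295 and 301 CPM without it. Genotypes overlapped at both treatments, and KO library 2 was the highest of all LPS libraries. The response was smaller than that of most members, at 2.77 (SE 0.118) on the log2 scale in KO, 2.53 (SE 0.117) in dCIS and 2.79 (SE 0.118) in WT.

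Of the intermediate forms, Slfn3, studied in the rodent gut, was the scarcest member after LPS. KO libraries had 37.3, 42.5, 35.9 and 34.8 CPM after LPS, against 9.54, 4.70, 6.88 and 6.20 CPM without it. In dCIS the values were 22.7, 29.7, 14.6 and 19.0 CPM after LPS and 4.32, 5.39, 3.92 and 4.48 CPM without it. The WT libraries had 28.2, 21.2, 19.3 and 28.9 CPM after LPS and 5.20, 4.15, 4.15 and 4.02 CPM without it. After LPS all 4 KO libraries lay above every dCIS and every WT library. These levels rest on 199 to 473 counts per library after LPS and 79 to 197 without it. The log2 fold change for LPS was 2.47 (SE 0.198) in KO, 2.24 (SE 0.203) in dCIS and 2.48 (SE 0.204) in WT, and in dCIS it was 2.53 without LPS libraries 3 and 4.

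Slfn4, a myeloid member that in mice marks cells of the Helicobacter-infected stomach, had the largest response of the family in each genotype. KO libraries had 921, 612, 981 and 872 CPM after LPS and 10.1, 4.74, 15.7 and 5.21 CPM without it. The dCIS libraries had 1312, 1291, 1339.8 and 1138 CPM after LPS and 11.6, 7.22, 17.5 and 14.9 CPM without it. In WT the values were 846, 905, 798 and 844 CPM after LPS and 10.9, 8.85, 7.67 and 7.61 CPM without it. The 4 dCIS libraries were the highest after LPS, above all KO and WT libraries, and KO library 2 was the lowest at both treatments. Its rise was 95.2-fold in KO, 99.1-fold in dCIS and 96.8-fold in WT, or 6.57 (SE 0.313), 6.63 (SE 0.311) and 6.60 (SE 0.313) on the log2 scale.

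The long forms were led by Slfn5, whose human counterpart is stimulated by interferon and restricts herpes simplex virus. It stood at 3595, 3737, 3121 and 3096 CPM in KO LPS libraries and 310.5, 270.3, 342 and 279 CPM in KO untreated ones. For dCIS the values were 2979, 3346, 2895 and 3291 CPM after LPS and 226, 219, 257 and 243 CPM without it. WT libraries had 3028, 2951, 2661 and 3163 CPM after LPS and 243, 226, 252 and 264 CPM without it. Without LPS every KO library lay above every dCIS and every WT library, and after LPS the genotypes overlapped. LPS changed Slfn5 by 3.49 (SE 0.110) on the log2 scale in KO, 3.73 (SE 0.111) in dCIS and 3.58 (SE 0.110) in WT.

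Slfn8, a long form close in sequence to Slfn9, had 1060.0, 1192, 992 and 1017 CPM in KO LPS libraries, against 63.9, 63.1, 65.5 and 53.4 CPM in KO untreated ones. In dCIS there were 898, 1096, 657 and 782 CPM after LPS and 41.4, 53.6, 47.1 and 50.2 CPM without it, and in WT 864, 907, 817 and 1036 CPM and 48.9, 49.3, 45.6 and 59.5 CPM. Slfn9 had 366, 434, 314 and 319 CPM in KO LPS libraries and 36.4, 22.5, 23.2 and 18.6 CPM in KO untreated ones. Libraries 3 and 4 of dCIS after LPS, which detected fewer genes, were the lowest 2 of the 12 LPS libraries for both genes. For Slfn9 the dCIS libraries had 296, 369, 212 and 232 CPM after LPS and 33.4, 34.8, 28.2 and 24.2 CPM without it, and the WT libraries 285, 279, 250.4 and 311 CPM and 24.8, 31.8, 19.3 and 16.1 CPM. The LPS response of Slfn8 was 4.11 (SE 0.143) in KO, 4.16 (SE 0.144) in dCIS and 4.16 (SE 0.144) in WT on the log2 scale. That of Slfn9 was 3.83 (SE 0.219), 3.20 (SE 0.213) and 3.61 (SE 0.217). Without dCIS LPS libraries 3 and 4 the dCIS responses were 4.37 for Slfn8 and 3.46 for Slfn9. Of the 60-base words in Slfn8 transcripts, 6.37% also occur in Slfn9, and 4.49% of those in Slfn9 occur in Slfn8, so reads of this length from such stretches could be split between the genes by the authors' counting. Summed as 1 row, an alternative chosen after seeing the data, the pair rose by 4.04 in KO, 3.86 in dCIS and 4.01 in WT. Of the 60-base words, 7.64% of those in Slfn8 and 6.20% of those in Slfn9 also occur in the pseudogene Slfn10-ps, which the sum leaves out.

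Ordered by fold change in WT, the members ran Slfn4, Slfn1, Slfn8, Slfn9, Slfn5, Slfn2 and Slfn3, and the order was the same in KO. In dCIS Slfn5 came before Slfn9. Slfn9 and Slfn5 differed in WT by 0.027 on the log2 scale, within a standard error of 0.244 for that difference if the estimates were independent. Slfn2 and Slfn3 differed by 0.30 in KO, 0.29 in dCIS and 0.32 in WT, with standard errors of 0.230, 0.235 and 0.236, so the order of these neighbours was not resolved. Between Slfn4 and Slfn1 the gap was 1.05 (SE 0.382) in KO, 2.01 (SE 0.373) in dCIS and 1.52 (SE 0.378) in WT. Among all 14757 genes tested, Slfn4 had the 96th largest LPS fold change in KO, the 95th in dCIS and the 98th in WT. Slfn3, the smallest responder of the family, was at rank 896 in KO, 1074 in dCIS and 894 in WT.

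**Figure D2:**
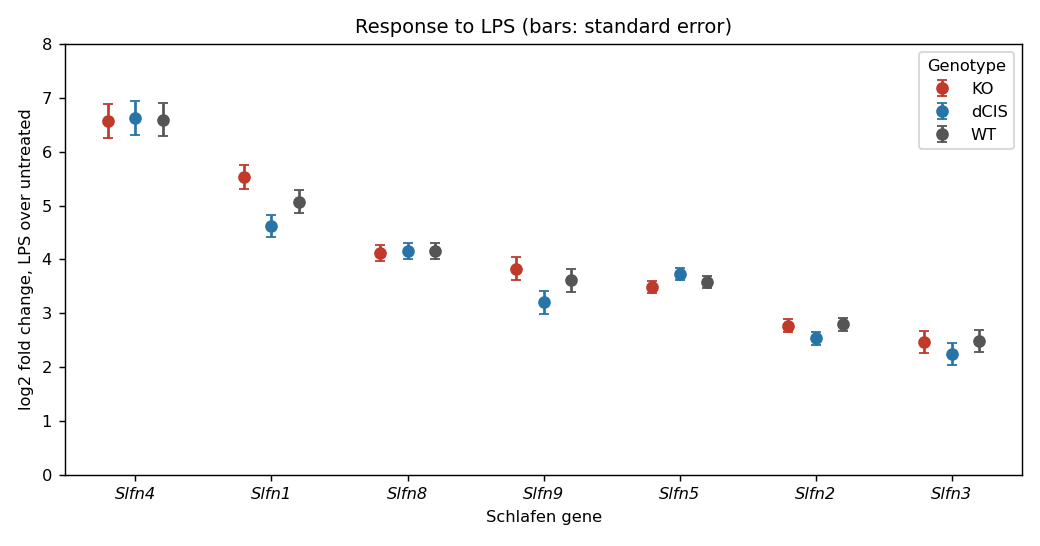
Log2 fold change of LPS over untreated for each Schlafen gene, with bars for the standard error of edgeR's fit, in KO, dCIS and WT (4 against 4 libraries each). Slfn4 is highest at 6.57 in KO, 6.63 in dCIS and 6.60 in WT, and Slfn3 is lowest at 2.47, 2.24 and 2.48.

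Levels can be compared between genes only per length, here as CPM per kilobase of annotated exon. After LPS Slfn2 had 1251 ± 181 in KO, 1221 ± 111 in dCIS and 1356 ± 62.8 in WT, and Slfn5 followed with 535 ± 51.7, 494 ± 35.4 and 466 ± 33.5. Slfn8 had 260.4 ± 21.8 in KO, 209.8 ± 45.6 in dCIS and 221 ± 23.0 in WT. Slfn4 had 213 ± 41.0, 320.4 ± 22.8 and 214 ± 11.0 in the same groups, so these neighbours lay within their spread in WT, and Slfn4 came ahead of Slfn8 in dCIS. Below them came Slfn1 with 75.7 ± 6.31 in KO, 86.4 ± 2.48 in dCIS and 83.9 ± 8.94 in WT, then Slfn9 with 60.0 ± 9.31, 46.5 ± 11.9 and 47.2 ± 4.19. Last was Slfn3 with 11.0 ± 0.998, 6.30 ± 1.87 and 7.16 ± 1.43 CPM per kilobase. Without LPS the first 3 places were again held by Slfn2, Slfn5 and Slfn8, with 183 ± 6.41, 47.5 ± 5.18 and 15.0 ± 1.34 CPM per kilobase in KO, 211 ± 29.1, 37.3 ± 2.71 and 11.8 ± 1.26 in dCIS, and 196 ± 21.6, 38.9 ± 2.52 and 12.4 ± 1.47 in WT. Slfn9, Slfn1, Slfn4 and Slfn3 all stood at or below 5.06 ± 0.821 CPM per kilobase without LPS. With oligo-dT capture the reads may favour the ends of transcripts, and then division by the whole exon length understates long genes.

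The makeup of the family's counts differed between LPS and untreated groups, most for Slfn2 and Slfn4; these shares are descriptions and were not tested. Slfn2 gave 26.2% ± 2.27 of the Schlafen counts after LPS and 43.0% ± 2.50 without it in KO, 26.2% ± 1.74 and 50.7% ± 2.62 in dCIS, and 30.5% ± 2.24 and 49.0% ± 3.16 in WT (SD, n = 4 each). Slfn4 gave 10.8% ± 2.62 after LPS and 1.23% ± 0.626 without it in KO, 16.4% ± 1.52 and 1.83% ± 0.525 in dCIS, and 11.4% ± 0.393 and 1.31% ± 0.164 in WT. Slfn5 gave 42.7% ± 1.47 after LPS and 42.2% ± 2.07 without it in KO, 40.4% ± 2.76 and 34.4% ± 1.66 in dCIS, and 39.7% ± 1.55 and 37.2% ± 3.37 in WT. Together the 7 genes took 0.540% to 0.618% of all counts in an LPS library and 0.0818% to 0.101% in an untreated library. In bulk RNA fewer cells of a type and less RNA per cell cannot be told apart.

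**Figure D3:**
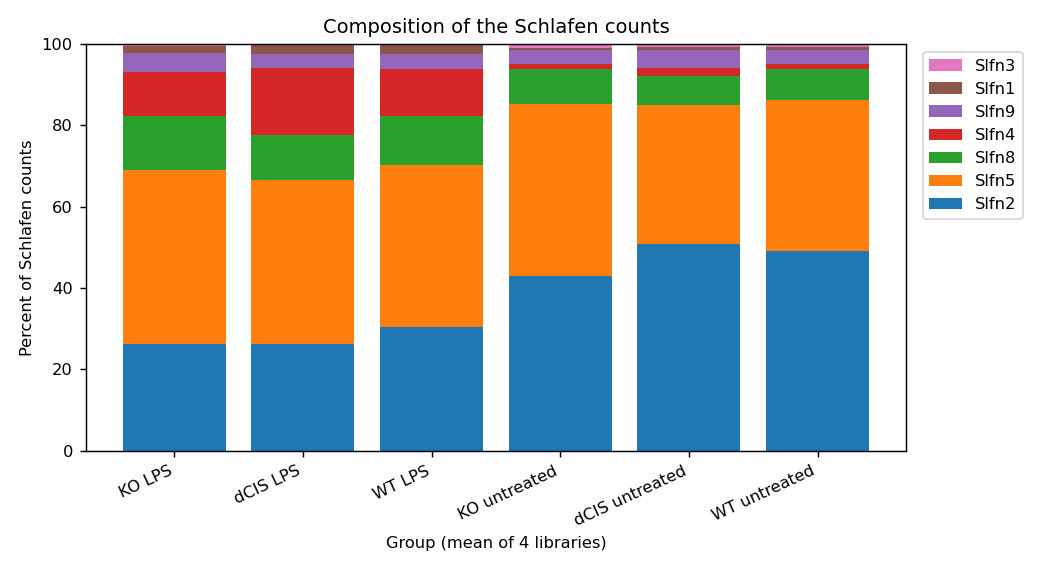
Composition of the summed Schlafen counts in each group, as the mean percent over 4 libraries; each bar adds up to the whole family. The Slfn2 segment covers 26.2% to 30.5% in LPS groups and 43.0% to 50.7% in untreated groups, and the Slfn4 segment covers 10.8% to 16.4% in LPS groups and 1.23% to 1.83% in untreated groups.

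Other genes with Schlafen names were scarce. Slfn14, the last gene of the cluster, had at most 7 counts in a library, in dCIS LPS library 3, and Slfnl1 had 1 count in 1 library. The pseudogene Slfn10-ps had 0 counts in all 24 libraries. The antisense gene Slfn5os rose after LPS, to 1.40 CPM in KO, 1.06 CPM in dCIS and 0.961 CPM in WT, against 0.0979, 0.0698 and 0.106 CPM without LPS, with log2 fold changes of 3.68 (SE 0.513) in KO, 3.78 (SE 0.559) in dCIS and 3.09 (SE 0.530) in WT. The strand setting of the counting is not given in the sources used here, so reads of Slfn5os and of Slfn5 cannot be told apart.

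The second comparison asks whether loss of Hdac9 altered the family. No member passed the test between KO and WT, after LPS (0 of 7, beside 2.74% of all genes tested) or without it (0 of 7, beside 7.31%). At an unadjusted p under 0.05 edgeR counted 1 member after LPS (3123 of all 14757 genes) and 4 without it (3724 of all genes). At an adjusted p under 0.05 DESeq2 called 1 after LPS and 3 without it, but the share of all genes it called was not counted. Slfn3 came nearest at both treatments: after LPS 37.6 ± 3.41 CPM in KO and 24.4 ± 4.88 CPM in WT, with the lowest KO library at 34.8 CPM and the highest WT library at 28.9 CPM, with KO over WT at 0.62 (SE 0.186, adjusted p = 0.0612) on the log2 scale. Without LPS it had 6.83 ± 2.02 CPM in KO and 4.38 ± 0.552 CPM in WT, with overlapping libraries, at 0.63 (SE 0.206, adjusted p = 0.057). Both values crossed the threshold in DESeq2, with an adjusted p of 0.0201 after LPS and 0.0140 without it, with no filter on low counts (0.00320 and 0.00793), and without dCIS LPS libraries 3 and 4 (0.0286 and 0.0288). With RLE size factors the value without LPS did so too (0.0393), and with these groups fitted alone the value after LPS (0.00800). They also crossed it without any 1 of 5 libraries: dCIS LPS library 2 (0.0385 after LPS, 0.0378 without it) or 3 (0.0396, 0.0375), KO untreated library 2 (0.0447, 0.0272), and dCIS untreated library 2 (0.0445, 0.0454) or 3 (0.0430, 0.0311). Of all 60-base words in Slfn3 transcripts, 11.1% also occur in other genes and 4.11% in Slfn4.

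Slfn5 without LPS had 300.5 ± 32.7 CPM in KO and 246 ± 15.9 CPM in WT with no overlap between libraries, at 0.29 (SE 0.100, adjusted p = 0.0716); it was called by DESeq2 (adjusted p = 0.00472), with RLE size factors (0.0367), and without KO untreated library 2 (0.0490) or dCIS untreated library 3 (0.0342). Slfn1 without LPS pointed the other way, with 3.08 ± 1.07 CPM in KO and 4.64 ± 0.606 CPM in WT, overlapping libraries and a value of -0.60 (SE 0.222, adjusted p = 0.0901). It too was called by DESeq2 (adjusted p = 0.0445), with no filter on low counts (0.00488) and without dCIS untreated library 2 (0.0438) or 3 (0.0343). After LPS Slfn1 was at -0.15 (SE 0.172, adjusted p = 0.671). Slfn9 after LPS did not overlap either, with 314 CPM in the lowest KO library and 311 CPM in the highest WT library, at 0.35 (SE 0.194, adjusted p = 0.314), and was called when the 2 compared groups were fitted alone (adjusted p = 0.0432). The other log2 values of KO over WT were -0.12 for Slfn2, -0.0035 for Slfn4, 0.20 for Slfn5 and 0.23 for Slfn8 after LPS. Without LPS they were -0.095 for Slfn2, 0.021 for Slfn4, 0.27 for Slfn8 and 0.13 for Slfn9. For Slfn4 after LPS the approximate 95% interval ran from -0.48 to 0.47.

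The third comparison asks the same of the cis-regulatory element. No member passed in edgeR between dCIS and WT, after LPS (0 of 7, beside 0.258% of genes tested) or without it (0 of 7, beside 0.0542%). DESeq2 called none at either treatment, and the share of all genes it called was not counted. At an unadjusted p under 0.05 edgeR counted 1 member after LPS (1933 of all 14757 genes) and 1 without it (533 of all genes). Slfn4 after LPS had 1270.2 ± 90.5 CPM in dCIS and 848 ± 43.6 CPM in WT, and the lowest dCIS library (1138 CPM) lay above the highest WT library (905 CPM). Its log2 fold change was 0.58 (SE 0.241, adjusted p = 0.288), with a 95% interval from 0.11 to 1.06. When the dCIS and WT LPS groups were fitted alone the adjusted p was 0.00800, and with no filter on low counts it was 0.000302. Without LPS Slfn4 was at 0.55 (SE 0.268, adjusted p = 1), Slfn1 at 0.50 (SE 0.207) and Slfn9 at 0.39 (SE 0.202), all with overlapping libraries and an adjusted p of 1. With no filter on low counts Slfn4 had an adjusted p of 0.0178. Slfn1 was at 0.22 without dCIS untreated library 3, and Slfn9 at 0.25 without WT untreated library 4. After LPS the remaining values were 0.043 for Slfn1, -0.15 for Slfn2, -0.19 for Slfn3, 0.084 for Slfn5, -0.078 for Slfn8 and -0.022 for Slfn9. The values of Slfn3, Slfn8 and Slfn9 after LPS turned positive, to 0.10, 0.14 and 0.24, without dCIS LPS libraries 3 and 4. Without LPS the remaining ones were 0.11 for Slfn2, 0.048 for Slfn3, -0.058 for Slfn5 and -0.08 for Slfn8.

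Between KO and dCIS without LPS, 4 of 7 members were called, 3 higher and 1 lower in KO, where 12.1% of all genes tested were called higher and 9.25% lower (21.3% in either direction). Slfn1 had 3.08 ± 1.07 CPM in KO and 6.58 ± 2.69 CPM in dCIS, with KO over dCIS at -1.10 (SE 0.216, adjusted p = 0.00219) on the log2 scale; KO library 3 (4.50 CPM) overlapped dCIS library 2 (3.84 CPM), and the call held in each alternative. Slfn5 had 300.5 ± 32.7 CPM in KO and 236 ± 17.1 CPM in dCIS, without overlap, at 0.35 (SE 0.100, adjusted p = 0.0164). Slfn3 was at 0.59 (SE 0.205, adjusted p = 0.0423) and Slfn8 at 0.35 (SE 0.129, adjusted p = 0.0498), each with overlap. The call of Slfn5 was lost without KO untreated library 3 (adjusted p = 0.0671), when the 2 groups were fitted alone (0.0662) and with no filter on low counts (0.0514). That of Slfn3 was lost in 7 alternatives, among them without KO untreated library 1 (log2 0.38, adjusted p = 0.203), 3 (0.0756) or 4 (0.0522) and without dCIS untreated library 1 (0.0919), 3 (0.127) or 4 (0.0807). For Slfn8 the call was lost in 19 alternatives. Among these were the fits without dCIS untreated library 1 (adjusted p = 0.154), 3 (0.102) or 4 (0.0706) and without KO untreated library 1 (0.106), 2 (0.0862) or 3 (0.114), and the sum of Slfn8 and Slfn9, at 0.15 (adjusted p = 0.448). Slfn4 had 8.94 ± 5.13 CPM in KO and 12.8 ± 4.45 CPM in dCIS, at -0.53 (SE 0.268, adjusted p = 0.16), and was called without KO untreated library 3 (log2 -0.95, adjusted p = 0.0158) or dCIS untreated library 2 (-0.72, 0.0370), and with no filter on low counts (-0.53, 0.00147). It was at -0.31 without KO untreated library 2, -0.34 without 4, and -0.35 without dCIS untreated library 3. The comparisons of KO with dCIS and of KO with WT share the KO libraries, and those of KO and of dCIS with WT share the WT libraries.

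After LPS, 1 of 7 members was called between KO and dCIS, and it was higher in KO, where 1.35% of all genes tested were called higher (2.18% in either direction). Slfn3 had 37.6 ± 3.41 CPM in KO and 21.5 ± 6.40 CPM in dCIS, without overlap, at 0.81 (SE 0.187, adjusted p = 0.023). The call was lost without KO LPS library 1 (adjusted p = 0.0522) or 2 (0.0582), without dCIS LPS library 3 (0.106) or 4 (0.0754), and without both 3 and 4, where the log2 value was 0.52 (adjusted p = 0.473). It was also lost when the KO and dCIS LPS groups were fitted alone (0.0570). Slfn4 had 846 ± 163 CPM in KO and 1270.2 ± 90.5 CPM in dCIS, also without overlap, at -0.59 (SE 0.241, adjusted p = 0.176); with no filter on low counts the adjusted p was 8.13e-05. Slfn1 libraries did not overlap either, with 154 CPM in the highest KO and 156 CPM in the lowest dCIS library, at -0.19 (SE 0.172, adjusted p = 0.562). Slfn8 was at 0.31 (SE 0.126, adjusted p = 0.169) and Slfn9 at 0.37 (SE 0.194, adjusted p = 0.286). Without dCIS LPS libraries 3 and 4 they were at 0.095 (adjusted p = 0.940) and 0.11 (0.970), and without dCIS LPS library 3 alone Slfn8 was at 0.20. Without dCIS LPS libraries 1 and 2, both of these were called, at 0.58 (adjusted p = 0.00507) and 0.70 (0.0321), and Slfn8 was called without dCIS LPS library 2 alone (0.45, adjusted p = 0.0226).

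**Figure D4:**
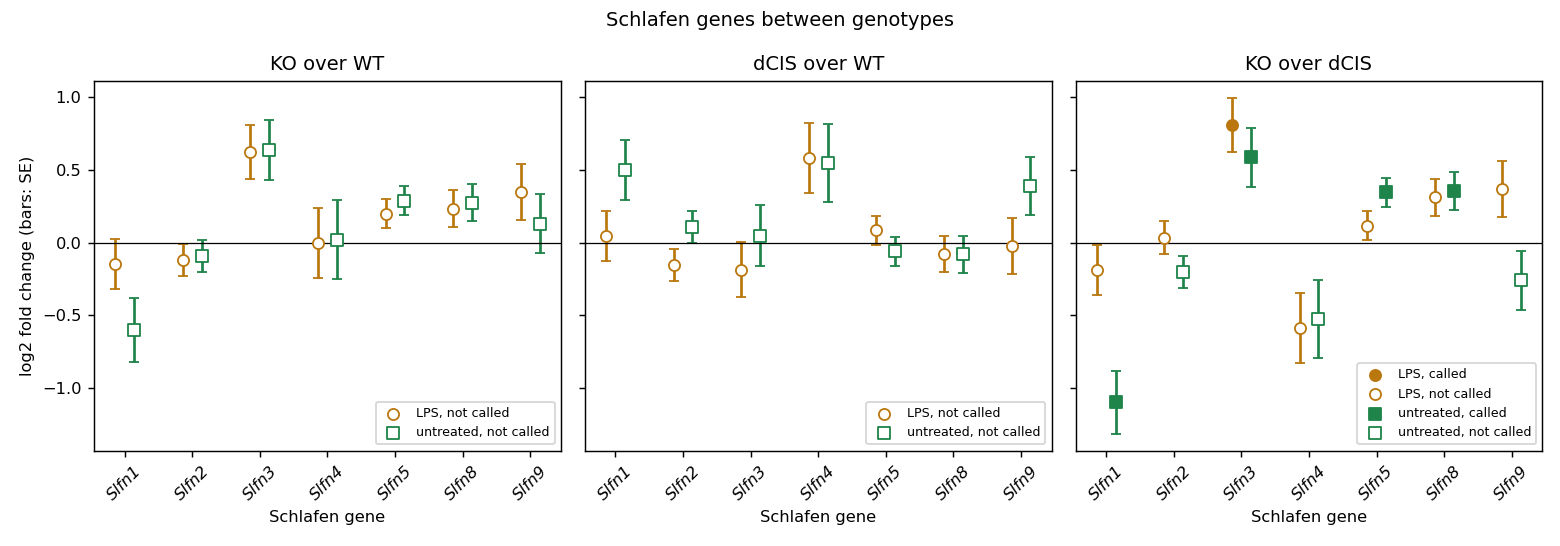
Log2 fold changes between genotypes for each Schlafen gene after LPS (circles) and without it (squares), with bars for the standard error; filled symbols mark an adjusted p under 0.05. No symbol is filled for KO over WT or dCIS over WT, and 5 are filled for KO over dCIS: Slfn3 after LPS and Slfn1, Slfn3, Slfn5 and Slfn8 without it.

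The difference in LPS response between genotypes was tested as an interaction term. In edgeR it passed for 0 of 7 members in KO against WT (0.0203% of all genes tested) and for 0 of 7 in dCIS against WT (0% of all genes tested). No member had an unadjusted p under 0.05 there. DESeq2 called no member either, and the share of all genes it called was not counted. Slfn1 was highest and Slfn5 lowest for KO minus WT, and the reverse held for dCIS minus WT. Slfn9 differed by more than Slfn5 in size, at 0.22 (SE 0.281) for KO minus WT and -0.41 (SE 0.280) for dCIS minus WT. The remaining values of KO minus WT were -0.022 for Slfn2, -0.011 for Slfn3, -0.025 for Slfn4 and -0.041 for Slfn8. For dCIS minus WT they were -0.26, -0.23, 0.033 and 0.0021 in the same order. For Slfn1 the response in KO minus that in WT was 0.45 (SE 0.281) on the log2 scale, with a 95% interval of -0.098 to 1.00, and for dCIS minus WT it was -0.46 (SE 0.269), with an interval of -0.98 to 0.07. Leaving out KO untreated library 3 or 4 moved the KO minus WT value to 0.68 or 0.30, and leaving out dCIS untreated library 3 moved the dCIS minus WT value to -0.18. Slfn5 had -0.09 (SE 0.141) for KO minus WT and 0.14 (SE 0.141) for dCIS minus WT, with intervals of -0.37 to 0.19 and -0.13 to 0.42.

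Genes of the pathway that leads from LPS to interferon were read from lists. Of 12 tested genes from TLR4 to interferon, 10 rose and 2 fell in KO, 10 rose and 1 fell in dCIS, and 10 rose and 2 fell in WT, with medians of 1.45, 1.38 and 1.42. Irf7, a transcription factor that amplifies interferon production, had a log2 fold change of 5.02 (SE 0.190) in KO, 4.98 (SE 0.190) in dCIS and 5.24 (SE 0.192) in WT. Ifnb1, which encodes interferon beta, was the only 1 of 9 interferon genes that passed the filter on low counts, and it stood at 2.55 CPM in KO, 1.59 CPM in dCIS and 2.58 CPM in WT after LPS, against 0.0222, 0.0117 and 0.106 CPM without it. All of these interferon levels are low beside the Schlafen genes. Of the 12 genes for interferon receptors and signalling, 11 rose and 1 fell in each genotype. Socs1, an inhibitor of the pathway, rose by 6.68 in KO, 6.79 in dCIS and 6.75 in WT, and Usp18, another inhibitor, by 5.31, 5.33 and 5.48.

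All 26 interferon-stimulated genes of a list that holds no Schlafen gene rose in each genotype, with a median of 4.46 in KO, 4.61 in dCIS and 4.64 in WT, beside the Schlafen medians of 3.83, 3.73 and 3.61. Rsad2, which encodes the antiviral enzyme viperin, rose by 7.71 in KO, 7.88 in dCIS and 7.98 in WT. Cmpk2, its neighbour and a nucleotide kinase, rose by 7.33, 7.89 and 7.78. Slfn4 and Slfn1 lay above the median of that list in each genotype, Slfn1 by less than its standard error in dCIS, and the other 5 members lay below it. Between KO and WT without LPS, 4 of the 26 rose (5.03% of all genes tested), Cmpk2 among them at 0.65 (SE 0.176, adjusted p = 0.0293), and 1 rose after LPS (2.31%). KO against dCIS without LPS gave 9 that rose and 1 that fell, where 12.1% and 9.25% of all genes tested did so. In dCIS against WT none was called after LPS (0.258% of all genes tested) or without it (0.0542%). Of the interferon receptor and signalling list, 7 of 12 rose in KO against dCIS without LPS, beside the same 12.1% of all genes tested. Stat2 was at 0.44 (SE 0.110, adjusted p = 0.00773) and Jak2 at 0.38 (SE 0.110, adjusted p = 0.0164).

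Lists tied to the known roles of Schlafen proteins did not move in 1 direction. Of 10 quiescence factors 4 rose and 6 fell after LPS in each genotype: Cdkn1a, a cyclin-dependent kinase inhibitor, rose by 2.43 in KO, 2.46 in dCIS and 2.61 in WT, and Foxo3, a transcription factor of resting cells, had log2 fold changes of -2.36, -1.92 and -2.19. Of 12 cyclin and proliferation genes, 3 rose and 8 fell in KO, 2 rose and 9 fell in dCIS, and 3 rose and 9 fell in WT. Mcm2, part of the replicative helicase, was at -3.09 in KO, -2.82 in dCIS and -3.35 in WT, while Ccnd2, a D-type cyclin, was at 4.60, 4.34 and 4.50. Between KO and dCIS without LPS, 6 of these 12 fell, beside 9.25% of all genes tested, in the comparison where 4 Schlafen genes were called. Ccna2 was among the 6, at -1.17 (SE 0.303, adjusted p = 0.00911). The part of cell division in the Schlafen calls was not tested. Of the 7 macrophage markers 1 rose in that comparison, beside 12.1% of all genes tested. Their sum was 19299.8 to 21223 CPM in untreated KO libraries and 15057 to 19399.9 CPM in untreated dCIS libraries. The part of these markers was not tested either. Of 8 genes for tRNA cleavage and repair, 3 rose and 2 fell in KO, 1 rose and 2 fell in dCIS, and 2 rose and 2 fell in WT. Trnt1, which adds the terminal CCA of tRNA, rose by 0.85, 0.80 and 0.73.

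Both genes beside the cluster described here moved less after LPS than the Schlafen genes, and Nle1 moved the other way. Of the 3 nearest protein-coding genes on the Slfn5 side, Fndc8 and Unc45b were too scarce to test, and Nle1, a ribosome assembly factor, fell in each genotype, with log2 fold changes of -0.78 in KO, -0.91 in dCIS and -0.97 in WT. On the Slfn14 side Rasl10b was not tested, and Ap2b1, a subunit of the clathrin adaptor, rose by 0.75 in KO, 0.95 in dCIS and 0.89 in WT, less than any Schlafen gene. Without LPS Ap2b1 rose in KO against WT, with 197 CPM in KO and 147 CPM in WT, at 0.43 (SE 0.101, adjusted p = 0.0192).

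The genes whose pattern was most like each member were found by Pearson's r of log2(CPM + 1) over the 24 libraries, among 9261 genes. The values describe likeness only, since LPS and untreated libraries form separate clusters that set r for any gene that responds to LPS. Closest to Slfn4 was Oasl1, an interferon-stimulated gene of the oligoadenylate synthetase family, at r = 0.998, followed by Mmp13 and Irf7. With the group means taken out, r between Slfn4 and Oasl1 was 0.932, and Oasl1 had 1026 ± 169 CPM in KO, 1330.4 ± 97.7 CPM in dCIS and 1244 ± 40.2 CPM in WT after LPS. Slfn5 was most like Ifi206, Sp100 and Ifi214 (r = 0.999 for each), and Slfn8 most like Parp9, Mndal and Ifi203 (0.999 for each). For Slfn1 the genes were Parp10, Ccdc25 and Oasl1 (0.995 to 0.996), and for Slfn2 they were Max, Rmdn3 and Prpf38a (0.997 for each). Slfn9 was most like Crybg1, Rbl1 and Atp10a (0.991 to 0.993). Slfn3 stood nearest to Exoc1, Ankrd17 and Uba6 (0.989 to 0.991), and its r with Exoc1 was 0.919 with the group means taken out. Exoc1 itself responded weakly to LPS in WT, at a log2 fold change of 0.60. The values 0.932 and 0.919 were the highest with group means taken out among the genes named here, and the others lay between 0.658 and 0.892. All were picked by r over the same libraries, and such values were not computed for other genes as a background.

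Because Slfn4 is expressed in neutrophils and several members in lymphocytes, markers of those cells were read in the same libraries. Of 8 neutrophil and progenitor markers 2 passed the filter, their sum was 2.63 to 5.30 CPM in LPS libraries and 0.968 to 4.26 CPM in untreated ones, and Ly6g was at 0 in all 24 libraries. Of 7 T and NK cell markers 1 passed, and their sum was 1.90 to 8.39 CPM in LPS libraries and 0.0496 to 0.844 CPM in untreated ones. The tested marker rose by 4.72 in KO, 6.01 in dCIS and 4.91 in WT on the log2 scale, and the markers at 0 in all LPS libraries of a group were Cd3e and Ncr1 in KO, Cd3g and Nkg7 in dCIS, and Cd3d and Cd2 in WT. For B cells 1 of 5 markers passed, with sums of 1.98 to 4.43 CPM in LPS libraries and 6.68 to 14.8 CPM in untreated ones. The 5 dendritic cell markers, 2 of them tested, summed to 1.91 to 4.85 CPM in LPS libraries and 0.488 to 1.45 CPM in untreated ones, and the 5 fibroblast markers, none tested, to at most 0.659 CPM. The summed T and NK cell and dendritic cell markers were thus higher after LPS. Neutrophil and progenitor sums were also higher after LPS in dCIS (2.63 to 4.42 against 1.41 to 2.28 CPM) and WT (3.18 to 4.31 against 1.07 to 2.51 CPM). In KO these overlapped (2.87 to 5.30 against 0.968 to 4.26 CPM). After LPS the sums of all these markers lay below the level of every Schlafen gene, and their part in the Schlafen response was not tested.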

How the data were processed

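RNA from 24 libraries of bone marrow-derived macrophages was captured on oligo-dT beads, from 200 ng of total RNA each, and sequenced as paired reads of 60 nt, per the labels' protocols. The authors deposited raw read counts per gene in 1 table. STAR, edgeR and build mm39 are named per the submitters' processing notes, without versions; how reads were counted, on which strand and with which annotation is not given in the sources used here. From the deposited counts, edgeR's filter (at least 10 counts in enough libraries, 15 in total) kept 14757 genes, the 7 members among them. Counts were scaled by TMM and fitted in 1 quasi-likelihood model with a term per group (R 4.3.3, edgeR 4.0.16), with Benjamini-Hochberg adjustment over all genes tested and a threshold of 0.05. The script was tested on simulated data. Libraries of a group differed beyond sampling noise in all 36 pairs compared, so none is a copy of another. Each was counted as 1 replicate, though this does not show that they come from separate animals. Library numbers come from the sample titles. Libraries with the same number deviated together (correlation over 0.1 in each pair) between LPS and untreated in KO (0.228 to 0.365) and in WT (0.210 to 0.231), and between untreated KO and dCIS (0.191 to 0.441), and not in every pair elsewhere. Alternatives were RLE size factors, no filter, a stricter filter, a replicate block, the compared groups fitted alone, DESeq2 1.42.0, and each library left out. Members, gene lists and tests were chosen with earlier results of these data known. Of each pathway list up to 4 tested genes with the smallest p for LPS in WT were eligible to be named, beside the nearest 3 protein-coding genes on each side of the cluster and the 3 genes most like each member; 1 of the neighbouring genes is not reported here. Promoter sequences come from RefSeq and exon lengths from GENCODE, both on GRCm38, and no coordinate was carried over to mm39.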

Additional observations from a re-analysis of the deposited data

Results flagged for a closer look

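In 2 of the 42 sets of 4 libraries (7 Schlafen genes in 6 groups) 1 library stood apart from the other 3 by Dixon's test; chance gives about 1 in 20. The lowest WT LPS library for Slfn2, library 4, had 2101 CPM, below the other 3, which lay between 2294 and 2318 CPM. For Slfn3 the highest untreated WT library, library 1, had 5.20 CPM, above the other 3 at 4.02 to 4.15 CPM.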

How the results depend on the processing

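All 711 alternative values of the LPS responses kept their direction and their side of the threshold, and 7 members were called in each genotype under every alternative (6 where Slfn8 and Slfn9 were summed). Over the 63 gene-wise results tallied, 1996 of 2096 alternative values did so, 35 lost the call, 41 gained it and 24 changed direction. The cause was not tested. The tally left out the differences in LPS response of Slfn2, Slfn3, Slfn4, Slfn8 and Slfn9. It also left out KO against dCIS for Slfn2 and Slfn9 without LPS, and for Slfn2 and Slfn5 after LPS. The share of all genes called was not counted under any alternative, so the member counts that follow have no share beside them. Calls over all genes may have changed as well. Members called between KO and WT without LPS, 0 as reported, were 2 with RLE size factors, 2 with no filter, 3 in DESeq2, 1 without dCIS LPS libraries 3 and 4, 1 without libraries 1 and 2, and 0 to 3 without a single library. After LPS they were 1 with no filter, 2 with these groups alone, 1 in DESeq2, 1 without either pair of dCIS LPS libraries, and 0 to 1 without a single library. For dCIS against WT the count was 1 with no filter at each treatment and 1 with the LPS groups alone. Between KO and dCIS without LPS, 1 was called with the groups alone and 2 to 5 without a single library, beside 4. After LPS, beside 1, the count was 2 with no filter, 0 with the groups alone, 0 without dCIS LPS libraries 3 and 4, 3 without libraries 1 and 2, and 0 to 2 without a single library. Leaving out dCIS LPS libraries by pairs and summing Slfn8 and Slfn9 were chosen after seeing the data.

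With the replicate block the count was 1 between KO and WT after LPS (Slfn3, adjusted p = 0.0246) and 1 without it (Slfn3, 0.0303), where the numbers do not pair the libraries in every case, and the block changed no other call. A block within each genotype cannot be used between genotypes and was not run there.

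Among the results tallied, values that changed direction lay between -0.19 and 0.13 as reported, and some lay further from 0 in an alternative. KO over WT without LPS ranged from -0.40 to 0.24 for Slfn4 (-0.043 with the replicate block) and from -0.099 to 0.33 for Slfn9 without a single library. After LPS Slfn4 ranged from -0.084 to 0.12, with 0.012 under RLE and 0.012 in DESeq2. For dCIS over WT without LPS, Slfn3 ranged from -0.046 to 0.14 and Slfn8 from -0.14 to 0.0049, with 0.084 for Slfn8 and Slfn9 summed. After LPS Slfn1 ranged from -0.031 to 0.087, Slfn8 from -0.22 to 0.029 and Slfn9 from -0.19 to 0.085. Slfn9 was also at 0.00012 under RLE and 1.56e-05 in DESeq2. Without dCIS LPS libraries 3 and 4 the values were 0.10 for Slfn3, 0.14 for Slfn8 and 0.24 for Slfn9. RLE moved the median of all genes by less than 0.1 in each comparison.

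Without LPS, Slfn1 rests on 44 to 206, Slfn3 on 79 to 197 and Slfn4 on 111 to 353 counts per library, which limits the differences that can be seen there.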
